A study of Mus musculus with 6 samples.

Results

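The dystrophin-glycoprotein complex genes described here are *Dmd*, *Utrn*, *Dag1*, *Sgca*, *Sgcb*, *Sgcd*, *Dtna*, and *Sspn*. They were taken by gene name, and the name picked out 8 of the 55421 genes in the count table. The C2C12 line was derived from mouse muscle, and its myoblasts fuse into myotubes when serum is withdrawn. Cells were stably transfected with a GFP-CUG5 plasmid, whose transcript carries 5 repeats (CUG5, normal group), or with a GFP-CUG200 plasmid, whose transcript carries 200 repeats (CUG200, DM1 group), and selected with G418. Both groups therefore carry a *GFP* transcript with repeats, and each was sequenced as 3 libraries of RNA from day 4 of differentiation. The model is a transfected line. The study calls the libraries of a group biological replicates. Separate transfections per replicate are not described in the sources used here, so the p-values measure the spread between these libraries. Another difference between the transfected and selected cells of the groups cannot be told apart from an effect of repeat length.

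The complex spans the muscle cell membrane and ties the actin cytoskeleton to the extracellular matrix. Dystrophin sits under the membrane, binds actin at its amino end and binds dystroglycan near its carboxyl end, and dystroglycan binds laminin outside the cell through sugars added to it in the secretory pathway. The sarcoglycans and sarcospan are membrane proteins that stabilize this link, and dystrobrevins and syntrophins form a scaffold on its inner face. Loss of dystrophin causes Duchenne muscular dystrophy, and loss of a sarcoglycan causes limb-girdle muscular dystrophy. Several of these genes are switched on as myoblasts become myotubes.

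*Dmd* has separate start sites for its long and short transcripts, and *Sgca* is the muscle sarcoglycan with the largest fall below, so the 250 bases before these starts are printed. The sequences are RefSeq's on build GRCm38.p6, 5′ to 3′ on the strand of the gene. Capitals mark every match, on either strand, to the E-box CANNTG that myogenic factors bind, its form CAGCTG (which is also a CANNTG match), the CATTCC core bound by TEAD factors, or the MEF2 and CArG boxes.
*Dmd* full-length start, chrX:82948620-82948869 (+): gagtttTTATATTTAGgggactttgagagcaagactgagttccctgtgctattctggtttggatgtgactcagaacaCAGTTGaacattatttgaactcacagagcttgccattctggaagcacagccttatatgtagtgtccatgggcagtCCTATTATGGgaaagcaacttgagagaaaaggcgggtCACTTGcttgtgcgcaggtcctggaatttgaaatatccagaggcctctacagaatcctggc
*Dmd* internal start, chrX:85048045-85048294 (+): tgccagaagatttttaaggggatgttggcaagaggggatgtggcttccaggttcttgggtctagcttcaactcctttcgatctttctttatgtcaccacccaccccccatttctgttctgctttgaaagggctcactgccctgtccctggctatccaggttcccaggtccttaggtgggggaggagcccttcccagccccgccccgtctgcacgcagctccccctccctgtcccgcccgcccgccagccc
*Sgca*, chr11:94976328-94976577 (-): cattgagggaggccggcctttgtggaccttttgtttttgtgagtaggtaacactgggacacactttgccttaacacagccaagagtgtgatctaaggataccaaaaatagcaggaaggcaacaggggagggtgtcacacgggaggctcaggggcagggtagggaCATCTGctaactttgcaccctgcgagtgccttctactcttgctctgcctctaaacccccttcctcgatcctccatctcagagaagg
The full-length *Dmd* window held 2 CANNTG matches, 1 MEF2 box, and 1 CArG box. No match to these letters was found in the internal *Dmd* window, and the *Sgca* window held 1 CANNTG match at position -86 from the start. RefSeq windows were matched for 7 of the 8 genes, with 10 starts among them. A CANNTG match stood in 7 of the 10 windows, against 66.2% of all 32851 windows of that length. These were windows of *Dag1*, *Dmd*, *Sgca*, *Sgcd*, *Sspn*, and *Utrn*. The *Dag1* windows overlap, and the same CACTTG is counted in each, at positions -104 and -247. CAGCTG stood in 0 of the 10 (13.0% of all windows), and CATTCC in 3, before *Sgcd* and *Sspn* (12.6%). The MEF2 box (2.92% of all windows) and the CArG box (1.47%) each stood in 1, that of full-length *Dmd*. These matches describe the letters and were not set against the expression changes.

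Library totals lay between 61707889 and 80957325 counts, and TMM factors between 0.940 and 1.05. Each count was worth 75 aligned bases, and low values were most often 4 counts, which is about 1 fragment, so the number of fragments behind a value is smaller than its count. The labelled cell type was checked against its markers: the myogenic factor *Myod1* stood at 55.7 ± 2.97 TPM in the normal group and 36.0 ± 8.24 TPM in the DM1 group (SD, n = 3), and the muscle intermediate filament gene *Des* at 1013 ± 31.2 and 703 ± 143 TPM (SD, n = 3).

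Transcripts of most of these 8 genes were less abundant in the DM1 group. With edgeR's quasi-likelihood test and Benjamini-Hochberg adjustment over the 19005 genes kept by the low-count filter, 5 of the 8 genes were lower in the DM1 group at an adjusted p-value under 0.05: *Dmd*, *Sgca*, *Dag1*, *Sspn*, and *Sgcb*. This stood beside 8.73% of all genes tested that were lower. *Sgcd* alone was higher (1 of 8, against 7.13% of all genes tested), and *Utrn* and *Dtna* did not pass the threshold. With an absolute log2 fold change over 1 also required, 1 of the 8 was lower, *Dmd*, against 0.816% of all genes tested. All 8 genes passed the filter. In 7 of the 8, every DM1 library lay below every normal library in CPM (counts scaled to library size), a pattern found in 19.3% of all genes tested, and *Sgcd* had every DM1 library above every normal library, a pattern found in 17.9%. The median log2 fold change of the 8 genes was -0.44, and that of all genes tested was 0.02. The RNA came from whole cultures, in which fewer myotubes and less RNA per myotube cannot be told apart. On the deposited TPM values, limma called 5 of the 8 lower and 0 higher. Of all 19005 genes, limma called 816 lower and 427 higher with 1 added to the TPM before log2. With 0.1 added it called 850 lower and 434 higher. The median log2 fold change over all genes was -0.06 and -0.09 in these TPM fits, against 0.02 by edgeR. The number of lower genes was 3 without any single normal library, 5 without DM1 library 1, 4 without DM1 library 2, and 6 without DM1 library 3. The lower calls over all genes also moved in these fits, from 1660 of 19005 with every library. They were 668 of 19666, 774 of 19851, and 485 of 19835 without normal libraries 1, 2, and 3. Without DM1 libraries 1, 2, and 3 they were 1376 of 19661, 568 of 19584, and 2111 of 19694.

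**Figure D1:**
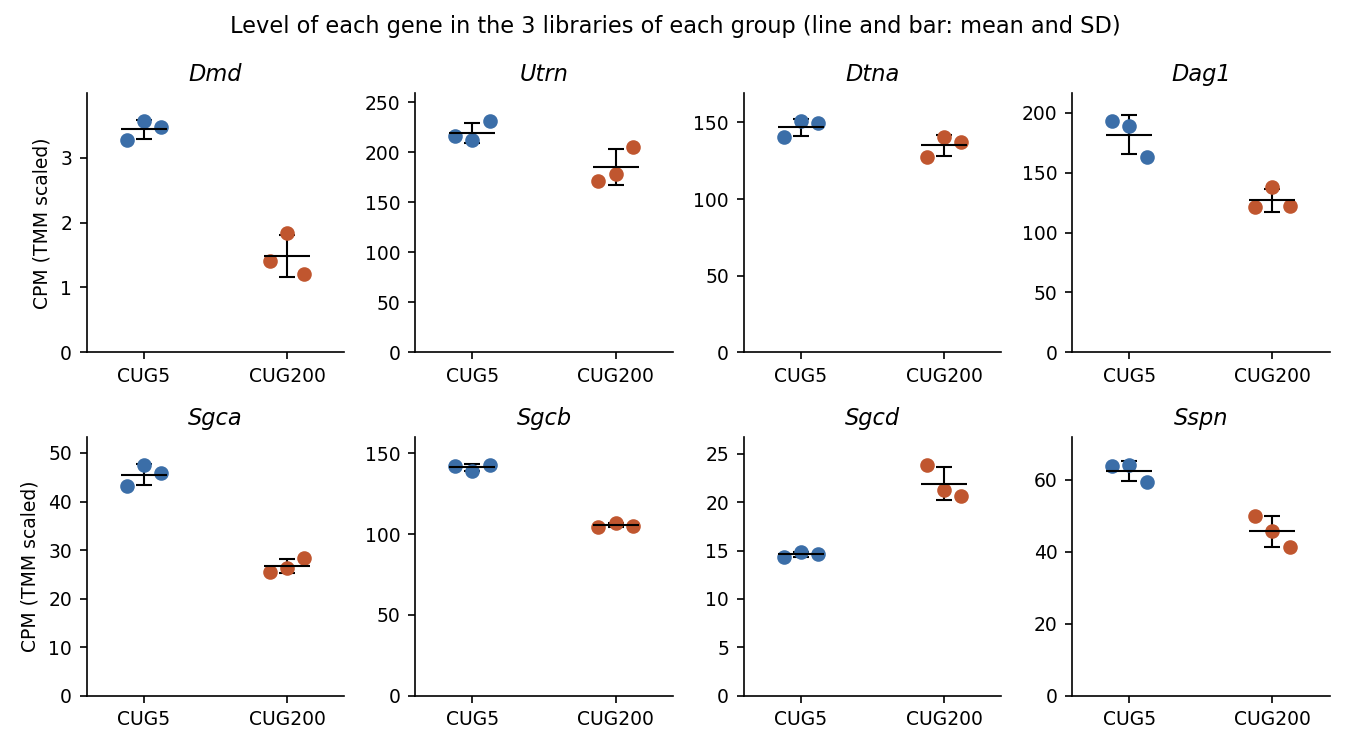
Each panel plots a gene's level in CPM scaled by TMM (vertical axis from 0) in the 3 normal (CUG5) and 3 DM1 (CUG200) libraries, with 1 point per library and a line and bar for the mean and SD. The DM1 points lie below all normal points in 7 panels, most closely for *Dtna*, and above them for *Sgcd*.

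Dystrophin transcripts showed the largest fall of the 8. *Dmd* (ENSMUSG00000045103, chrX:82948870-85206141 on GRCm38, plus strand) stood at 3.28, 3.57, and 3.48 CPM in the normal libraries and at 1.41, 1.84, and 1.20 CPM in the DM1 libraries. The groups were well apart, and the gene was scarce in both. Its mean fell from 3.44 ± 0.145 to 1.48 ± 0.324 CPM (SD, n = 3), a log2 fold change of -1.21 (SE 0.208, adjusted p = 0.00804, edgeR), or 2.32-fold lower. Of all genes tested, 1.55% had a lower log2 fold change. These levels rest on 276, 219, and 243 counts in the normal group and 105, 131, and 80 in the DM1 group, which at 4 counts a fragment are few fragments. On the deposited TPM values, limma gave -0.42 on the log2(TPM + 1) scale (adjusted p = 0.0284), which understates the change of a gene this low and is not past 1, and -1.36 on the log2(TPM + 0.1) scale (adjusted p = 0.0340).

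Utrophin, the autosomal paralog of dystrophin that is made in many tissues and can take its place at the membrane, moved less. *Utrn* (ENSMUSG00000019820, chr10:12382188-12869365, minus strand) stood at 215.6, 211.7, and 230.9 CPM in the normal group and at 171.1, 178.6, and 205.4 CPM in the DM1 group. DM1 library 3 came close to the lowest normal library. The log2 fold change was -0.25 (SE 0.0944, adjusted p = 0.115, edgeR) and did not pass the threshold, but it was -0.33 (adjusted p = 0.0215, edgeR) without DM1 library 3.

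*Dtna* encodes α-dystrobrevin, which binds dystrophin and the syntrophins. The gene (ENSMUSG00000024302, chr18:23415135-23659715, plus strand) stood at 140.5, 150.8, and 149.5 CPM in the normal group and at 127.4, 140.4, and 137.4 CPM in the DM1 group. The highest DM1 library nearly touched the lowest normal library. Its log2 fold change was -0.12 (SE 0.0805, adjusted p = 0.356, edgeR), which did not pass the threshold. It was -0.07 (edgeR) without DM1 library 1 and -0.28 and -0.29 on the log2(TPM + 1) and log2(TPM + 0.1) scales (limma), none past the threshold. *Dmd* and *Dtna* are both known to be alternatively spliced in DM1 muscle. The values here are gene totals, and exon use was not analysed here.

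Dystroglycan, the laminin receptor at the centre of the complex, was lower. *Dag1* (ENSMUSG00000039952, chr9:108204634-108263958, minus strand) encodes a precursor that is cut into the laminin-binding α chain and the membrane-spanning β chain. Its level was 193.1, 189.0, and 163.0 CPM in the normal group and 121.0, 138.2, and 122.3 CPM in the DM1 group. Normal library 3 was the lowest of its group and still above every DM1 library. The mean fell from 182 ± 16.3 to 127 ± 9.62 CPM (SD, n = 3), a log2 fold change of -0.52 (SE 0.0987, adjusted p = 0.0115, edgeR). The adjusted p-value (edgeR) rose to 0.0533 without normal library 1 and to 0.0515 without normal library 2.

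The sarcoglycans did not move together. α-sarcoglycan, β-sarcoglycan, and δ-sarcoglycan belong to a membrane subcomplex in muscle, and the genes of the first and second fell while that of δ rose. *Sgca* (ENSMUSG00000001508, chr11:94962791-94976327, minus strand), whose product is largely restricted to striated muscle, stood at 43.2, 47.6, and 45.9 CPM in the normal group and at 25.4, 26.4, and 28.4 CPM in the DM1 group. Replicates lay close together and the groups were far apart. The log2 fold change was -0.77 (SE 0.0879, adjusted p = 0.00211, edgeR), or 1.71-fold lower, and the call held in all 16 alternatives tried.

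*Sgcb* (ENSMUSG00000029156, chr5:73632749-73647790, minus strand), which is also made outside muscle, stood at 142.4, 138.8, and 143.0 CPM in the normal group and at 104.6, 107.1, and 105.2 CPM in the DM1 group. This was the smallest spread within groups relative to the level among the genes that fell. The log2 fold change was -0.42 (SE 0.0724, adjusted p = 0.00808, edgeR), and the adjusted p-value (edgeR) was 0.0542 without normal library 3.

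*Sgcd* (ENSMUSG00000020354, chr11:46896253-47988969, minus strand), which forms a tight core with β-sarcoglycan, went the other way. It stood at 14.4, 14.8, and 14.7 CPM in the normal group and at 23.9, 21.3, and 20.6 CPM in the DM1 group. Every DM1 library was higher, and the normal libraries hardly differed. The log2 fold change was 0.58 (SE 0.102, adjusted p = 0.00849, edgeR), or 49.9% higher. On the deposited TPM values it was 0.43 on the log2(TPM + 1) scale (adjusted p = 0.0667, limma) and did not pass the threshold. The median over all genes tested was -0.06 on that scale.

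Sarcospan, a small protein with several membrane spans that binds the sarcoglycans, was lower. *Sspn* (ENSMUSG00000030255, chr6:145931641-145965223, plus strand) stood at 63.8, 64.1, and 59.3 CPM in the normal group and at 49.9, 45.7, and 41.3 CPM in the DM1 group. The ranges did not meet. The log2 fold change was -0.45 (SE 0.0925, adjusted p = 0.0145, edgeR), and the adjusted p-value (edgeR) was 0.0601, 0.0614, and 0.0514 without normal libraries 1, 2, and 3 and 0.0621 without DM1 library 2. None of the 8 genes shares exonic bases with a gene on its own strand in the annotation. *Dtna* shares 90 bases with the antisense gene *Gm47898* and *Sspn* shares 69 with *Sspnos*, and the strand setting of the counting is not given in the sources used here. *Gm47898* held 22 to 60 counts and *Sspnos* 6 to 24 counts per library, and adding them to the partner gene changed neither call.

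Levels of different genes were compared in TPM, which is scaled for transcript length. In the normal group *Dag1* (63.9 ± 6.13 TPM) and *Sgcb* (63.8 ± 3.35 TPM) were the most abundant and overlapped. *Dtna* (58.2 ± 0.592 TPM), *Sgca* (53.1 ± 1.48 TPM), *Utrn* (34.5 ± 0.465 TPM), *Sspn* (23.7 ± 2.07 TPM), and *Sgcd* (15.2 ± 0.621 TPM) followed, each with its range apart from the next (SD, n = 3). *Dmd* was far below the rest, at 0.547 ± 0.0223 TPM (SD, n = 3). The order changed in the DM1 group. *Dtna* (48.3 ± 8.70 TPM), *Sgcb* (43.9 ± 4.53 TPM), and *Dag1* (42.8 ± 5.87 TPM) overlapped at the top, and *Sgca* (29.6 ± 4.76 TPM) overlapped with *Utrn* (27.4 ± 4.79 TPM). *Sgcd* (20.8 ± 1.03 TPM) now stood above *Sspn* (15.8 ± 0.244 TPM), and *Dmd* was again the lowest (0.152 ± 0.0290 TPM; SD, n = 3). Utrophin transcripts thus exceeded dystrophin transcripts in all 6 libraries on this scale.

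**Figure D2:**
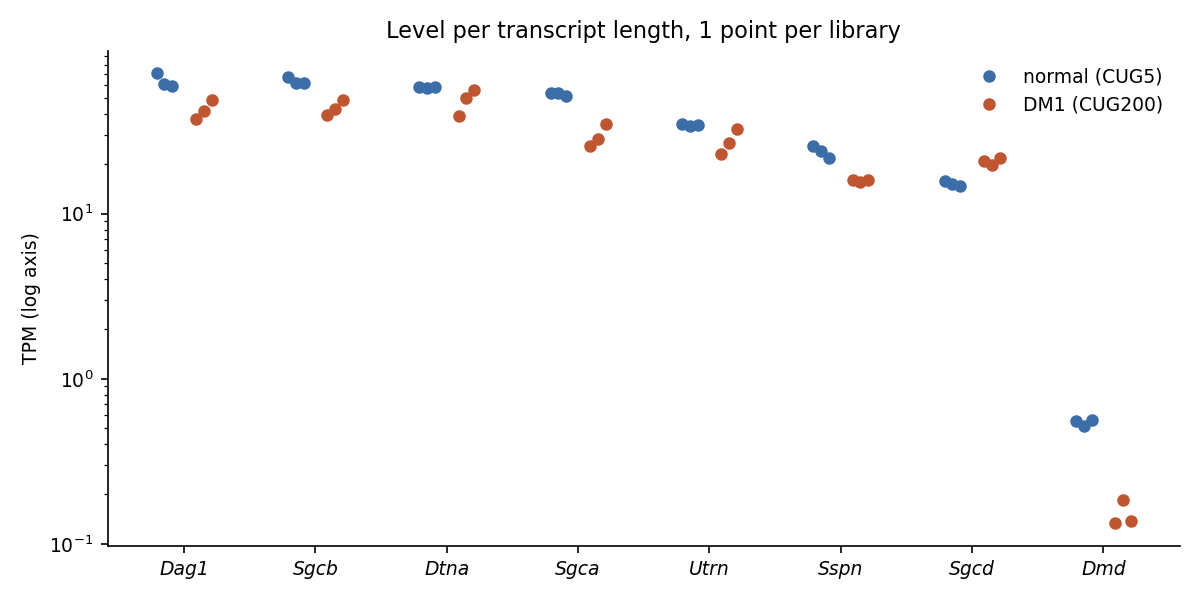
TPM of each gene (vertical axis, log scale) in the 3 normal (blue) and 3 DM1 (orange) libraries, with 1 point per library and the genes ordered by their normal mean. *Dmd* lies between 0.133 and 0.561 TPM, below every other gene, and *Sgcd* has its DM1 points above its normal points.

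The balance between a muscle gene and its more widely expressed paralog was followed as a ratio of TPM in each library. The *Utrn* to *Dmd* ratio was 62.6, 65.3, and 61.5 in the normal group and 172, 145, and 236 in the DM1 group. The *Sgce* to *Sgca* ratio, in which ε-sarcoglycan is the paralog of α-sarcoglycan found in many tissues, was 0.958, 0.899, and 0.900 in the normal group and 1.68, 1.45, and 1.25 in the DM1 group. Both ratios were higher in every DM1 library than in any normal library. The ratios were 2.86-fold and 1.58-fold higher, a difference of 1.52 and 0.66 on the log2 scale. The *Dtnb* to *Dtna* ratio (β-dystrobrevin to α-dystrobrevin) overlapped between the groups, with means of 0.0670 ± 0.0117 and 0.0778 ± 0.00703 (SD, n = 3), a log2 difference of 0.23 that was 0.37 without normal library 1 and 0.15 without normal library 2. A two-sided exact permutation test with 3 libraries against 3 cannot go below p = 0.1. It gave p = 0.1 for the first and second ratio and 0.3 for the third, or 0.15, 0.15, and 0.3 after Benjamini-Hochberg adjustment over the 3 ratios (exact permutation), so none passed 0.05. In CPM the *Utrn* to *Dmd* difference was 0.99 rather than 1.52 on the log2 scale.

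Within the sarcoglycan subcomplex, the ratios to *Sgcd* were given as a description. The *Sgca* to *Sgcd* ratio of TPM was 3.50 ± 0.0945 in the normal group and 1.42 ± 0.179 in the DM1 group (SD, n = 3). The *Sgcb* to *Sgcd* ratio was 4.20 ± 0.0866 and 2.11 ± 0.170 (SD, n = 3). δ-sarcoglycan transcripts were thus the scarcest of these sarcoglycans in both groups, by a smaller margin in the DM1 group.

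**Figure D3:**
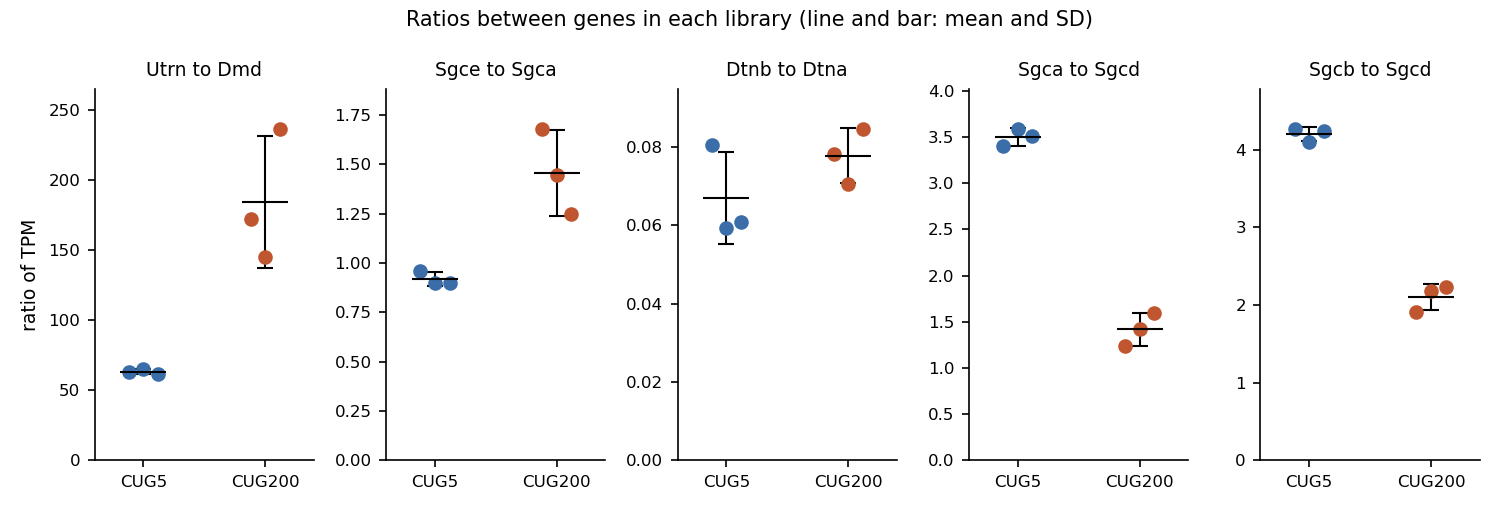
Ratios of TPM between pairs of genes in each library (vertical axes from 0, no unit), with 1 point per library and a line and bar for the mean and SD in the normal (CUG5) and DM1 (CUG200) groups. The groups are apart in all panels but *Dtnb* to *Dtna*, with *Utrn* to *Dmd* at 61.5 to 65.3 in the normal group and 145 to 236 in the DM1 group.

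*Dmd* fell further per length than in counts. Its TPM was 0.558, 0.521, and 0.561 in the normal group and 0.133, 0.185, and 0.137 in the DM1 group, a 3.59-fold lower mean against 2.32-fold in counts. The mean *Dmd* transcript length implied by a library's counts and FPKM was 10509, 11252, and 9999 bases in the normal group. It was 14923, 14924, and 15040.3 bases in the DM1 group. The annotation holds 14 *Dmd* transcripts between 369 and 14910 bases. The DM1 values lie slightly above the longest, the full-length transcript. A mean over these transcripts could not exceed it, so the implied length is approximate. The normal values lie below it. For the other genes this length changed little, from 1618 to 1618 bases for *Sgcd*, from 1438 to 1398 bases for *Sgca*, and from 10685 to 10464 bases for *Utrn*. It was 4427 and 4429 bases for *Sspn*, whose fall was also larger in TPM. At 4 counts a fragment, the DM1 libraries held 26.25, 32.75, and 20 fragments of *Dmd*, and the normal libraries 69, 54.75, and 60.75, so the lengths of the DM1 group rest on few fragments. Whether the choice of *Dmd* transcripts differed between the groups was not tested.

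**Figure D4:**
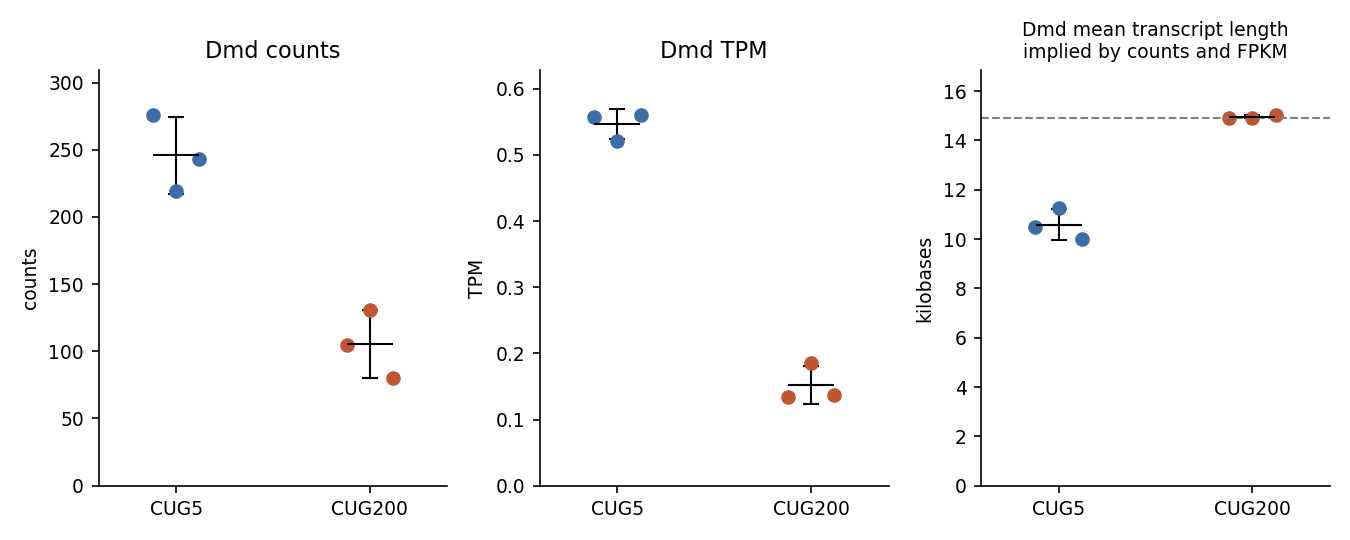
*Dmd* in each library as counts (left), TPM (middle), and the mean transcript length in kilobases implied by counts and FPKM (right), all axes from 0, with 1 point per library and a line and bar for the mean and SD. The dashed line is the longest annotated transcript (14910 bases). The 3 DM1 libraries lie slightly above it, and the normal libraries lie at 9999 to 11252 bases.

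The rest of the pathway was read from lists of 54 other genes, of which 47 passed the filter. Of these 47, 12 were lower in the DM1 group and 4 higher at an adjusted p-value under 0.05 (edgeR), beside 8.73% and 7.13% of all genes tested, and 31 did not pass. The median log2 fold change was -0.02. On the deposited TPM values limma called 8 lower and 1 higher. Of all 19005 genes it called 816 lower and 427 higher on log2(TPM + 1), and 850 and 434 on log2(TPM + 0.1). The number of lower pathway genes was 7, 5, and 6 without normal libraries 1, 2, and 3, 5 without DM1 library 2, and 16 without DM1 library 3. Over all 19584 to 19851 genes of these fits, the lower calls were 668, 774, 485, 568, and 2111. The number of higher pathway genes was 2, 2, and 1 without the normal libraries, 1 without DM1 library 2, and 6 without DM1 library 3. Over all genes the higher calls were 628, 665, 543, 589, and 1678.

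Among the other genes of the complex itself, 2 of 9 tested were lower and 0 were higher (0 higher also at an unadjusted p-value under 0.05, and 0 with DESeq2). The shares over all genes tested were 8.73% lower and 7.13% higher. *Sntb1*, which encodes β1-syntrophin, an adaptor that binds dystrophin and dystrobrevin, had a log2 fold change of -0.99 (SE 0.0799, adjusted p = 9.1e-04, edgeR). The paralogs did not pass the threshold: *Sgce* stood at 48.8 ± 2.70 TPM and 42.5 ± 1.54 TPM (SD, n = 3) with a log2 fold change in counts of 0.02 (adjusted p = 0.922, edgeR), and *Dtnb* had 0.12 (adjusted p = 0.734, edgeR). The count of lower genes was 1 without normal library 2, normal library 3, or DM1 library 2. These fits called 774, 485, and 568 lower over all genes tested.

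Dystroglycan binds laminin only after its sugars are built, and 5 of the 18 genes for this processing were lower and 1 higher. Beside these stood 8.73% lower and 7.13% higher over all genes tested. *Pomgnt2*, which extends the O-mannose core, had a log2 fold change of -1.22 (SE 0.273, adjusted p = 0.0198, edgeR) on 46 to 184 counts per library. Smaller falls were measured for the kinase gene *Pomk* (-0.37, adjusted p = 0.0303, edgeR) and the O-mannosyltransferase gene *Pomt2* (-0.34, adjusted p = 0.0415, edgeR). *Dpm3*, a subunit of the enzyme that makes the mannose donor, rose by 0.88 (SE 0.168, adjusted p = 0.0114, edgeR). The count of lower genes was between 1 and 6 when a library was left out, 2 or 1 on the TPM values, 2 with scaling by library size alone, 3 with all genes of at least 1 count, and 3 with the replicate block. In the same order, the lower calls over all genes were 485 to 2111, 816 or 850, 1452, 1589 of 30211, and 1497. The count of higher genes was 0 without normal library 3 or DM1 library 2 and 2 without DM1 library 3. Higher calls over all genes were 543, 589, and 1678 in these fits.

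The matrix partners of dystroglycan moved in both directions, with 2 of the 9 tested lower and 3 higher. Over all genes tested, 8.73% were lower and 7.13% higher. *Lama2*, the laminin α2 chain of mature muscle basement membrane, fell by 0.61 on the log2 scale (SE 0.0936, adjusted p = 0.00540, edgeR), and *Lamb1*, the laminin β1 chain, fell by 0.49 (SE 0.0856, adjusted p = 0.00823, edgeR). *Lama4* rose by 0.76 (SE 0.107, adjusted p = 0.00369, edgeR), *Agrn*, which encodes agrin, by 0.46 (adjusted p = 0.0274, edgeR), and *Lama5* by 0.35 (adjusted p = 0.0303, edgeR). Scaling by library size alone gave 1 higher (edgeR). On the TPM values limma called 0 of the 9 higher (1 at an unadjusted p-value under 0.05), and edgeR called 1 higher without any single normal library and without DM1 library 2. Higher calls over all genes were 1120 with library size alone and 427 and 434 on the TPM values. They were 628, 665, and 543 without normal libraries 1, 2, and 3, and 589 without DM1 library 2.

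Of the cytoskeletal partners, 3 of 9 tested were lower and 0 were higher by edgeR (1 at an unadjusted p-value under 0.05, and 0 with DESeq2). Shares over all genes tested were 8.73% and 7.13%. *Sync*, which encodes syncoilin, an intermediate filament protein that binds α-dystrobrevin, fell by 0.68 on the log2 scale (SE 0.0989, adjusted p = 0.00447, edgeR). *Ank2*, an ankyrin gene, fell by 0.55 (SE 0.106, adjusted p = 0.0121, edgeR) and *Des* by 0.43 (SE 0.0993, adjusted p = 0.0233, edgeR). The count of lower genes was 2, 1, and 1 without normal libraries 1, 2, and 3, 1 without DM1 library 2, and 5 without DM1 library 3. Lower calls over all genes in these fits were 668, 774, 485, 568, and 2111. The genes of the α7β1 integrin, the other laminin receptor of muscle, did not pass the threshold, with -0.20 for *Itga7* (adjusted p = 0.183, edgeR) and 0.25 for *Itgb1* (adjusted p = 0.135, edgeR). Without DM1 library 3, 1 of the pair was called lower and 1 higher, beside 2111 lower and 1678 higher of 19694 genes.

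**Figure D5:**
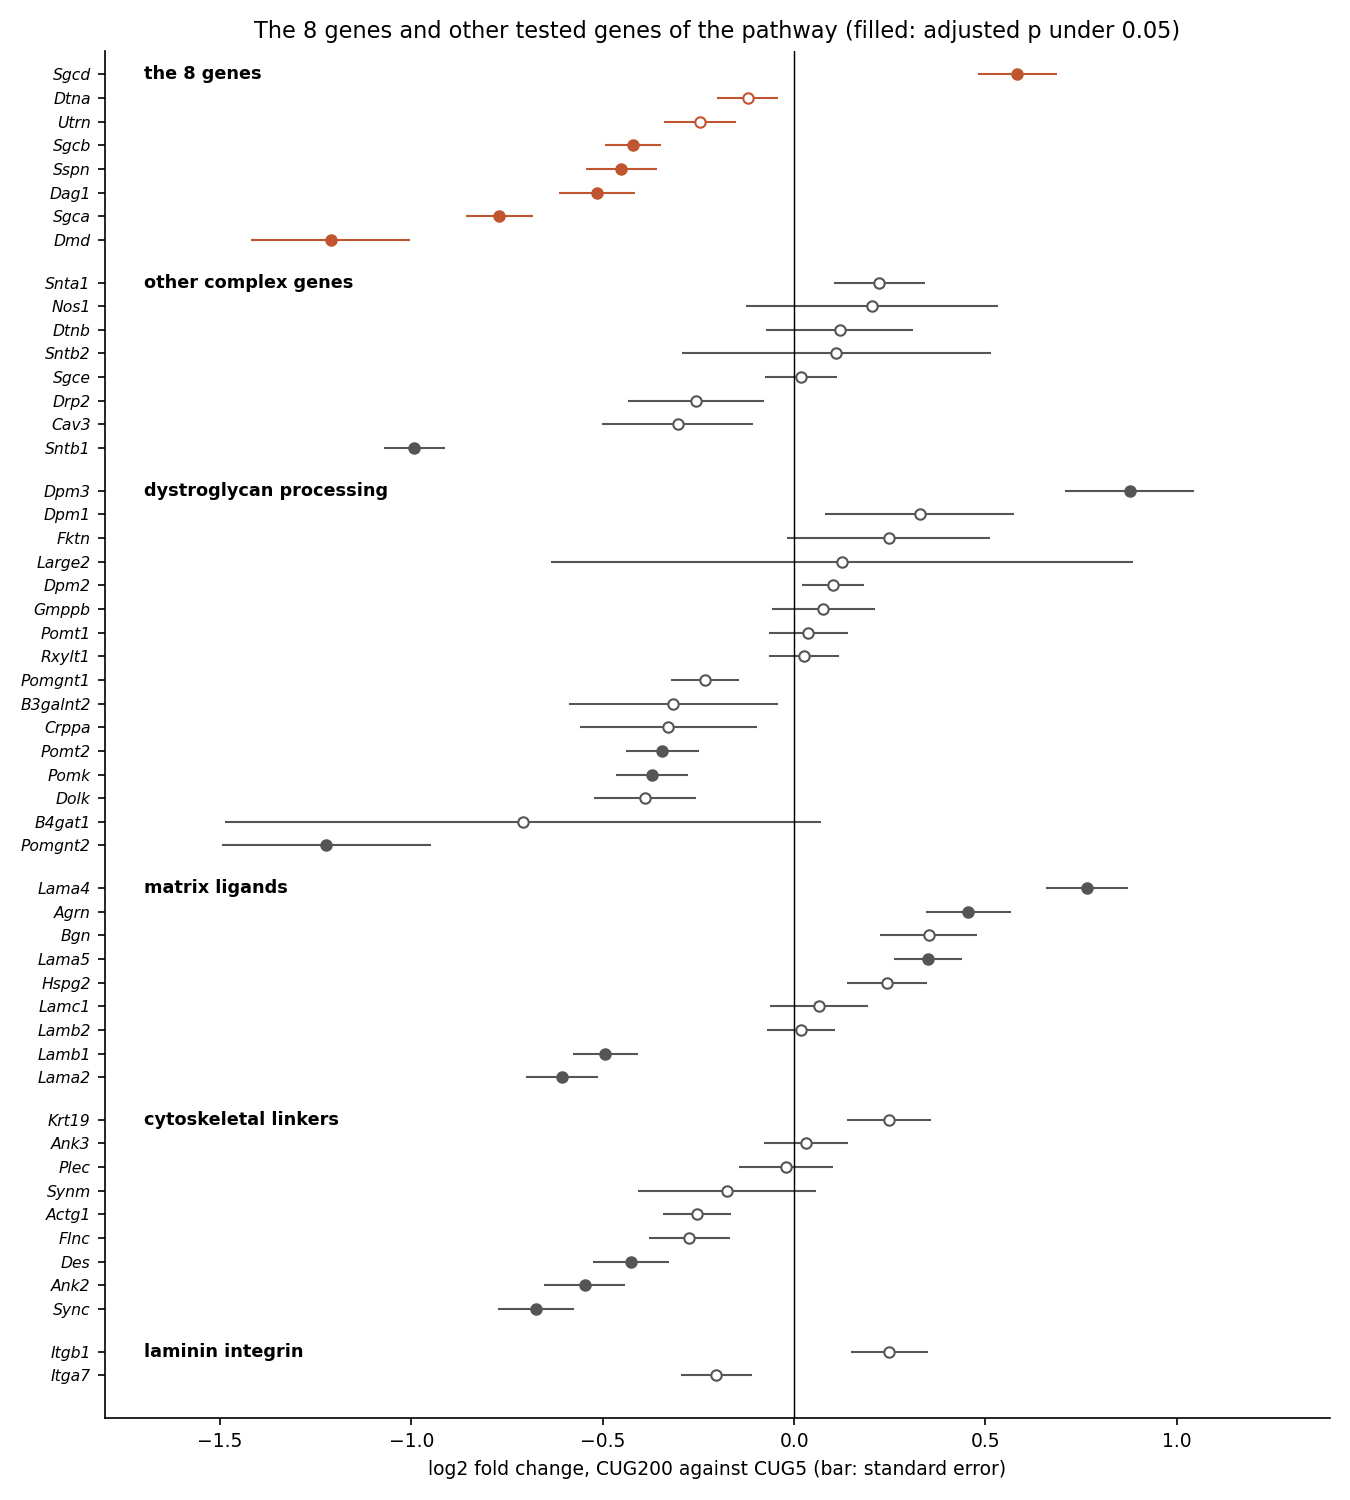
Log2 fold change of the DM1 (CUG200) against the normal (CUG5) group (horizontal axis) with its standard error for the 8 genes (orange) and other tested genes of the pathway (grey), grouped by role and ordered within each group. Filled points have an adjusted p-value under 0.05 (edgeR), 5 of the 8 genes to the left of 0 and *Sgcd* to the right.

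Most markers of myotubes were also lower in the DM1 group. Of 18 myotube markers, 15 were lower (7 of them past a log2 fold change of 1) and 0 higher by edgeR. DESeq2 called 0 higher as well. Of all genes tested, 8.73% were lower (0.816% past 1) and 7.13% higher. *Mymx* was the 1 marker higher at an unadjusted p-value under 0.05 (0.23, adjusted p = 0.0732, edgeR). The count of lower markers was 11, 12, and 11 without normal libraries 1, 2, and 3. It was 14, 10, and 14 without DM1 libraries 1, 2, and 3, and 1 marker was called higher without DM1 library 3. The summed level of the 18 was between 12128 and 13248 CPM in the normal libraries and between 7861 and 8817 CPM in the DM1 libraries. Myosin heavy chain genes showed the largest falls of the 18, with log2 fold changes of -2.90 for *Myh8* (adjusted p = 7.7e-05, edgeR), -2.13 for *Myh7*, -1.78 for *Myh1*, -1.76 for *Myh2*, -1.42 for *Myh4*, and -1.32 for *Myh3*. The muscle creatine kinase gene *Ckm* (-0.84), the skeletal actin gene *Acta1* (-0.91), and the myogenin gene *Myog* (-0.65) fell as well. The myotube lists share *Des* with the cytoskeletal partners. Of 10 markers of undifferentiated myoblasts, *Myod1* (-0.52, adjusted p = 0.0129, edgeR) and *Hes1* (-0.67, adjusted p = 0.0143, edgeR) fell and *Id2* rose (0.41, adjusted p = 0.0304, edgeR), and their summed level overlapped, at 908.6 to 941.9 CPM and 874.1 to 944.8 CPM. The count of higher genes among these 10 was 0 on the TPM values (limma, 0 at an unadjusted p-value under 0.05), 0 without any single normal library and without DM1 library 1 or 2 (edgeR, 1 at an unadjusted p-value under 0.05 in each), and 2 without DM1 library 3. The count of lower genes was 0 without normal library 3 and 1 without normal library 2 or DM1 library 2. The 10 markers of other cell types summed to 6.25 to 7.05 CPM and 5.99 to 6.89 CPM, and *Ptprc*, *Adipoq*, *Epcam*, and *Rbfox3* had 0 counts in every library. The part of the lower myotube marker levels in the lower levels of *Dmd*, *Dag1*, *Sgca*, *Sgcb*, and *Sspn* was not tested.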

How the data were processed

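Total RNA of C2C12 cells was sequenced in 3 libraries per group. The authors trimmed the reads with Trim Galore, aligned them to GRCm38 with HISAT2, and quantified them with StringTie, without versions given in the sources used here. They deposited raw counts per gene for the 6 libraries, and for each library a table of gene coverage, FPKM, and TPM, which are scaled for length and library size. The deposited counts were used for the main test, the deposited TPM for levels, ratios and an alternative test, and the deposited FPKM and coverage for the implied length (75 bases times counts, divided by FPKM times the library's coverage per FPKM) and the size of a count. Genes were joined by gene ID, and positions came from the GENCODE M21 annotation.

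Groups and replicate numbers came from the sample labels. Counts were filtered with filterByExpr (minimum count 10), scaled by TMM, and tested with edgeR's robust quasi-likelihood test without covariates, with Benjamini-Hochberg adjustment at 0.05 over all 19005 genes. The study's cutoff of an absolute log2 fold change over 1 was applied as well, and its tool, DESeq2, was an alternative. Other alternatives were DESeq2's size factors, library size alone, filters of at least 1 count in all and at least 10 counts in every library, a replicate block, no robust estimation, counts divided by 4, limma-trend on TPM with a pseudocount of 1 or 0.1 before log2, CPM or FPKM ratios, and each library left out. Summing *Dtna* and *Sspn* with their antisense genes was chosen after seeing the data.

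The 8 genes and the lists were chosen with earlier results of these data known. The genes named are the 8, in each list up to 6 genes with the smallest p-value among those with an adjusted p-value under 0.05, the paralogs *Sgce* and *Dtnb*, and the markers *Myod1*, *Myog*, *Ckm*, *Des*, and *Acta1*. Some genes that this rule would name are not reported here, though the counts over lists include them. The laminin integrin genes, *Myh1*, *Myh2*, and *Mymx*, the marker genes at 0 counts, and the antisense genes were named outside this rule, after their values were seen. No pair of replicates agreed within sampling noise (chi-square per degree of freedom from 39.5 to 147), so each library was used as 1 replicate. The chi-square used deposited counts, about 4 to a fragment, which raises the value that sampling alone would give. The count tests were tested on simulated data. Models were fitted in R 4.3.3 (limma 3.58.1, DESeq2 1.42.0, edgeR 4.0.16). Python 3.11.15 with numpy 2.4.6, scipy 1.17.1, matplotlib 3.10.9, and pandas 2.3.3 was used for the rest.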

Additional observations from a re-analysis of the deposited data

How the results depend on the processing

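No result for the 8 genes reversed in direction under any alternative. Of 130 values of the 8 genes under the alternatives, 120 kept the direction and the side of the threshold, 9 no longer passed it, and 1 newly passed it. *Dmd* and *Sgca* passed an adjusted p-value of 0.05 in all 16 alternatives, but *Dmd* had -0.42 on log2(TPM + 1), not past 1. With 1 library left out, the log2 fold change lay between -0.33 and -0.18 for *Utrn*, -0.58 and -0.47 for *Dag1*, -0.44 and -0.40 for *Sgcb*, and -0.51 and -0.39 for *Sspn*. Each such fit has fewer samples. It called between 3 and 6 of the 8 genes lower, between 5 and 16 of the other pathway genes lower, and between 1 and 6 of them higher. Over all genes tested, the fits with 1 library left out called between 485 and 2111 lower and between 543 and 1678 higher. *Sgcd* had 0.43 on log2(TPM + 1) and 0.45 on log2(TPM + 0.1), neither past the threshold by limma, so 0 of the 8 genes were called higher by limma (1 at an unadjusted p-value under 0.05). The median log2 fold change over all genes tested was -0.06 and -0.09 on these scales, against 0.02 in the main test. The cause was not tested. These TPM fits called 1 and 1 of the other pathway genes higher, and scaling by library size alone called 2. Over all genes tested, the higher calls of these fits were 427, 434, and 1120, against 1356 in the main test. With an absolute log2 fold change over 1, 0 of the 8 genes were higher and 1 lower, and 0 and 2 of the other pathway genes. The *Utrn* to *Dmd* difference was 0.99 as a ratio of CPM, which keeps no transcript length. With the replicate block, 5 of the 8 genes were lower and 1 higher, with 10 and 4 of the other pathway genes, and no call among the 8 changed. Over all genes tested the block gave 1497 lower and 1326 higher. Correlations between libraries of the same number were 0.0675, 0.0222, and 0.0263, not every library correlated best with its own number, and the numbers were not taken to pair the samples. Of the 8 genes, *Dmd* had the lowest counts, at 80 to 276 per library.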

Other observations

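Some other genes of the pathway were singled out after their values were seen. *Drp2*, which encodes a further dystrophin-related protein, stood at 29.7 ± 5.44 TPM in the normal group and 22.5 ± 5.84 TPM in the DM1 group (SD, n = 3), far above *Dmd* in both, and did not pass the threshold (log2 fold change -0.26, adjusted p = 0.385, edgeR). *Sntb2*, the β2-syntrophin gene, was at 37.5, 41.4, and 13.7 CPM in the normal group and at 32.4, 33.8, and 33.8 CPM in the DM1 group, so that normal library 3 stood apart from the other 5. *B4gat1*, a dystroglycan glycosyltransferase gene, was at 26.7, 35.2, and 13.0 CPM in the normal group and at 11.9, 29.4, and 4.54 CPM in the DM1 group, a spread within groups that exceeded the difference between them.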
